A study of Homo sapiens with 12 samples.

Results

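The response of a squamous carcinoma line to human plasma was measured in 8 of the 12 RNA-seq libraries of the series, and it is described here across all genes and beyond the best known pathways. The cells were PE/CA-PJ41, a line from an oral squamous cell carcinoma. The plasma group (n = 4 libraries) received human plasma at 10% for 48 h, and the control group (n = 4) was labelled as control, with no additive and no culture time given. Both groups are the same line, and no genotype difference, clone or plasma donor is named, so a single line and an unstated number of plasma donors limit the comparison. No label states that the replicates of a group come from separate cultures, and p-values therefore reflect only how far these libraries spread, possibly for technical reasons. Of 20375 genes listed, 12403 reached 1 TPM (a normalized share of transcripts that allows levels to be compared between genes) in at least 4 of the 8 libraries, and these were tested.

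Plasma is the fluid part of blood. It carries lipoproteins, hormones, growth factors, complement and clotting proteins, binding proteins for vitamins and many protease inhibitors, and cells take up part of this cargo by endocytosis and break it down in lysosomes. Oral squamous carcinoma cells derive from the stratified epithelium of the mouth and usually keep basal keratins, a program of terminal differentiation and a set of secreted proteases and inhibitors of the skin and mucosal surface.

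Total estimated reads ran from 40166503 to 41531218 in control and from 36258955 to 41946780 with plasma. No pair of replicates agreed within sampling noise. In each group reads differed least between replicates 3 and 4, and most between replicate 1 and replicates 3 and 4. Mitochondrial transcripts took 0.287% to 0.969% of reads in control and 0.216% to 0.769% with plasma, a wide spread within both groups. The share rose from replicate 1 to replicate 4 in each group. What this shared order reflects was not tested. Markers of the labelled epithelial line were present, with KRT5 at 4531 to 8164 TPM and EPCAM at 247 to 260 TPM in all 8 libraries. The sum of 6 epithelial markers went from 7995 ± 404 to 11507 ± 486 TPM (mean ± SD), a rise carried by KRT5 and KRT14. ITGB4, also in the sum, went the other way, at 260 to 340 TPM in control and 183 to 257 TPM with plasma. TP63, EPCAM and CDH1 overlapped between the groups. A sum of 7 leukocyte markers went from 44.3 ± 5.33 to 75.3 ± 6.50 TPM, but CD68, a lysosomal membrane protein, made up nearly all of it, and PTPRC stayed at or below 0.774 TPM, with MS4A1 at 0 in all 8 libraries. Of the erythroid and platelet markers HBB, ALAS2, PPBP, PF4, GP9 and TREML1 were at 0 in every library, HBA1 and HBA2 did not exceed 2.44 and 1.38 TPM, GP1BA had at most 1 read, and ITGA2B lay at 0.353 to 0.693 TPM in all 8 libraries. Exact permutation tests over samples (two-sided) gave p = 0.0286 for the epithelial, leukocyte and endothelial sums and for the number of genes at 1 TPM or more (12380 ± 31.6 in control and 12280 ± 26.1 with plasma). That is the smallest p that 70 assignments allow, and it was 0.0714 after adjustment over 10 such tests.

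Plasma was associated with many small changes and few large ones. With limma on log2(TPM + 1) and Benjamini-Hochberg adjustment at 0.05, 5918 genes (47.7% of those tested) were called, 2413 higher (19.5%) and 3505 lower (28.3%) with plasma. Lower genes made up 59.2% of the calls as deposited, 46.7% after the median of all genes, which lay at -0.05, was set to 0, and 49.4% from estimated reads. The excess of lower calls therefore turned with the scaling. The median size of a called difference was 0.33 on the log2 scale. In bulk RNA fewer cells of a kind and less RNA per cell cannot be told apart. Only 890 genes (7.18%) were called and changed at least 1.5-fold, 419 higher (3.38%) and 471 lower (3.8%), and 171 changed at least 2-fold, 88 higher and 83 lower. Of the 890, 879 were also called in the same direction from estimated reads and 0 in the opposite one. Folds here refer to log2(TPM + 1), and for genes with low values they understate the change.

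**Figure D1:**
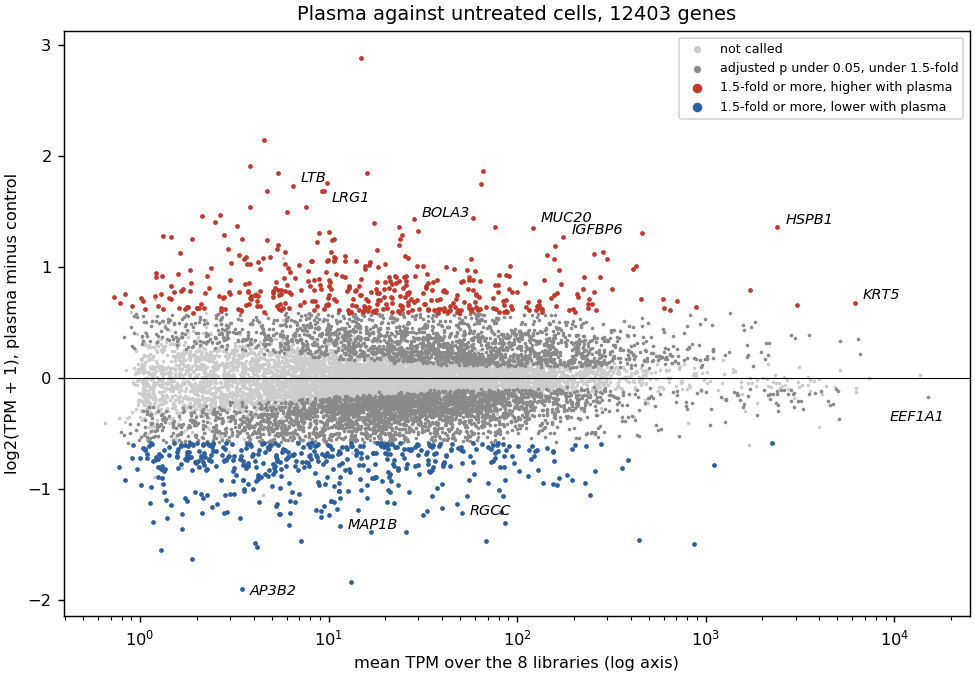
Each point is 1 of the 12403 genes tested, with its mean TPM over the 8 libraries (log axis) against the difference of log2(TPM + 1), plasma minus control; colours give the call. Genes past 1.5-fold number 419 above 0 and 471 below it, and HSPB1 and KRT5 are the labelled ones that combine a high level with such a difference.

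From 1 TPM upward the share of genes called grew with the level while the share past 1.5-fold fell. Of genes with a mean of 1 to 5 TPM 36.4% were called and 12.5% passed 1.5-fold. Of those at 100 TPM or more 60.4% were called and 5.17% passed 1.5-fold. The 55 genes with a mean under 1 TPM were called in 45.5% of cases. Genes on the lists of pathways known to respond in these cells, such as sterol synthesis, interferon, NF-kB targets and keratinocyte differentiation, held 156 of the 890 larger changes, which is 16.3% of the 956 tested genes on those lists. The other 734 (82.5% of the larger changes) lay outside them and made up 6.41% of the 11447 genes on no such list. The lists were drawn up with earlier results of these data known, so the higher share on them is not a separate result. No gene was under 0.1 TPM in every library of one group and at 1 TPM or more in every library of the other (0 genes).

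Lymphotoxin beta and a secreted glycoprotein of the acute phase led the increases outside those lists. The lists do not name every gene of a pathway, and acute phase genes are among the pathways they cover. LTB, a membrane-bound cytokine of the TNF family, read 3.70, 2.78, 1.34 and 2.12 TPM in control replicates 1 to 4, and 13.1, 13.7, 7.83 and 7.40 TPM in plasma replicates 1 to 4. The groups did not overlap, which was a condition of the choice of these genes and held for 5467 genes (44.1% of those tested). Within plasma the first pair of libraries lay well above the other two. The difference of log2(TPM + 1) was 1.72 ± 0.24 (SE, adjusted p = 0.000186). LRG1, a leucine-rich glycoprotein that is itself found in plasma, read 4.17, 4.27, 3.44 and 4 TPM in control and 16.3, 16.4, 13.1 and 13.9 TPM with plasma. Every plasma library was above 3 times the highest control, and the log2 difference was 1.68 ± 0.09 (adjusted p = 6.31e-07). IKBKE, a kinase of innate immune signalling, went from 5.90 ± 0.680 to 15.4 ± 1.40 TPM.

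Promoter sequences of the largest changes ranged from CpG-poor to CpG-dense in both directions. Those of 5 genes, chosen after their letters were seen, are shown to span that range: LTB and LRG1, which rose, hold few CpG dinucleotides, HSPB1, which also rose, holds many, and RGCC and MAP2, which fell (below), hold many and few. Each sequence is the 250 bases before an annotated transcript start of the gene, from RefSeq on GRCh38.p14. The letters run 5′ to 3′ on the gene's strand, with every CpG in capitals. The stretches lie at chr6:31582426-31582675 (minus strand) for LTB, chr19:4540037-4540286 (minus) for LRG1, chr7:76302423-76302672 (plus) for HSPB1, chr13:41457300-41457549 (plus) for RGCC and chr2:209661246-209661495 (plus) for MAP2. The MAP2 gene spans 209424047 to 209734112, so its stretch lies within the gene, before an internal start.
LTB: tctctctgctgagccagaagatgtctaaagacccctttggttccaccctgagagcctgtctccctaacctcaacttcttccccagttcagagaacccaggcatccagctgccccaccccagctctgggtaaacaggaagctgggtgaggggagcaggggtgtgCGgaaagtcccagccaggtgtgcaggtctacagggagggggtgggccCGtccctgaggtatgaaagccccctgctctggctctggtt
LRG1: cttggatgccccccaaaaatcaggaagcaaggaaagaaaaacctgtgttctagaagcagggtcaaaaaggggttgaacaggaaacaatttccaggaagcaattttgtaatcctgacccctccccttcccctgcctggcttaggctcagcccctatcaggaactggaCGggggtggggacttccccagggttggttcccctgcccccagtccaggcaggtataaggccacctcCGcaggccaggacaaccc
HSPB1: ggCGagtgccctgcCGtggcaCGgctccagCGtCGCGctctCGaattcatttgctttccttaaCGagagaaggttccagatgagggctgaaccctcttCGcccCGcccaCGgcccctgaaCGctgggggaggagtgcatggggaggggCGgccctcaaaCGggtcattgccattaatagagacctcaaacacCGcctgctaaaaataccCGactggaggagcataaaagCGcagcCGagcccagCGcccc
RGCC: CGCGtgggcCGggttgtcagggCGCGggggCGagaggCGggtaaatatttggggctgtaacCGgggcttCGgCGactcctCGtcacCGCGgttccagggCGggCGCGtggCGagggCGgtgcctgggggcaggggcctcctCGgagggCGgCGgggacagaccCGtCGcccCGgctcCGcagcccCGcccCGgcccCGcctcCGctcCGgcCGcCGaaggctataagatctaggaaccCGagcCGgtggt
MAP2: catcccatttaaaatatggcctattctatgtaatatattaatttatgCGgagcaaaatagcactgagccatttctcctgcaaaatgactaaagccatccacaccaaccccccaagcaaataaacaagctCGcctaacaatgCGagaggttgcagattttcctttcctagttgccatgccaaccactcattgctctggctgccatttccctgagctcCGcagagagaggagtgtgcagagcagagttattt
These stretches hold 2 CpGs for LTB, 2 for LRG1, 19 for HSPB1, 34 for RGCC and 4 for MAP2. The ratio of observed to expected CpG, over 300 bases that also take in the first 50 of the transcript, was 0.0705, 0.131, 0.79, 1.02 and 0.333 in the same order. Of the 12 largest increases outside the known pathways 8 had a promoter in the table, and 3 of these (LTB, LRG1 and IKBKE) had a ratio under 0.4, called CpG-poor here. Of the 12 largest decreases 9 had one, and 2 of these (FAM25A and MAP2) were CpG-poor. For MAP2 this holds for the internal start only. The promoters of AK1 and CCNA1, both among these 24 genes, also lay within the gene.

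CpG-poor promoters were more frequent among larger changes of either direction, over the 10021 tested genes whose promoter was found in the RefSeq table. A ratio under 0.4 was found in 9.8% of all of them. It was found in 24.3% of the 317 genes past 1.5-fold higher and 20.8% of the 341 past 1.5-fold lower, and in 9.3% of genes not called. Of the 982 CpG-poor genes 7.84% were past 1.5-fold higher and 7.23% lower, against 2.66% and 2.99% of the 9039 others. CpG-poor genes had a lower median level, 11.3 against 24.2 TPM, and low genes passed 1.5-fold more often (above). The part of the level in this was not tested. Motif letters, searched on both strands of the 300 bases, were spread in a related way. The TATA box (TATAAA) was present in 12% of genes past 1.5-fold higher, 10.6% of those lower and 5.87% of all. The AP-1 element (TGACTCA) was present in 5.68%, 6.74% and 3.13% in the same order. The NRF1 element, a motif rich in CpG, was in 2.21%, 7.92% and 11.8%, and the ETS element (CCGGAAG) in 11%, 13.2% and 19.7%. The CCAAT box differed between the directions, at 24.9% of genes higher, 41.1% of genes lower and 36.7% of all. LRG1 holds the STAT element (TTCCNGGAA), as do 1.19% of all promoters, 1.89% of those past 1.5-fold higher and 0.88% of those lower. Such matches are descriptions of letters and not of binding.

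**Figure D2:**
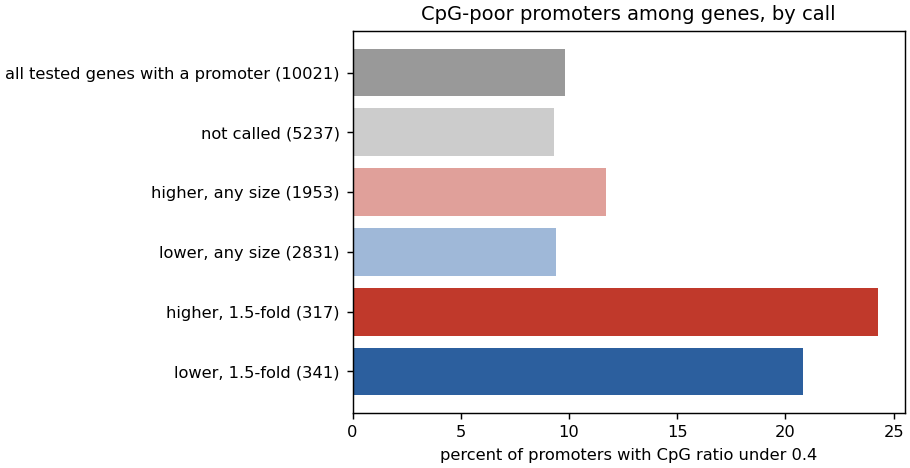
Bars give the percent of promoters (300 bases) with a ratio of observed to expected CpG under 0.4 in each set of genes, with the number of genes in brackets. The share is 24.3% and 20.8% in the sets past 1.5-fold and 9.8% over all tested genes with a promoter.

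Other large increases came from genes of unlike function. HSPB1, a small heat shock protein that binds unfolded proteins and actin, was the most abundant of them. It read 1140, 1359, 1405 and 1504 TPM in control and 3520, 3094, 3600 and 3607 TPM with plasma, so that the lowest plasma library was more than 2-fold above the highest control. Its log2 difference was 1.36 ± 0.08 (adjusted p = 8.42e-07). IGFBP6, which binds insulin-like growth factor 2, read 92.7, 97.5, 115 and 108 TPM in control and 243, 236, 256 and 260 TPM with plasma. The libraries of each group lay close together, and the log2 difference was 1.26 ± 0.06 (adjusted p = 4.65e-07). MUC20, a membrane mucin with a near-identical copy with which its reads may be shared, went from 68.2 ± 5.91 to 175 ± 16.5 TPM. AK1, an adenylate kinase that balances ATP, ADP and AMP, went from 12.9 ± 1.06 to 34.5 ± 2.80 TPM. CDKN2AIPNL went from 13.8 ± 0.867 to 35.2 ± 1.21 TPM and TMEM265, a little-studied membrane protein, from 3.44 ± 0.612 to 11.8 ± 1.44 TPM.

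In 2 of these genes control libraries differed widely among themselves. BOLA3, a mitochondrial factor for iron-sulfur clusters, read 8.11, 14, 19.1 and 21 TPM in control and 35.6, 43.8, 44.0 and 42.2 TPM with plasma. CDH5, the cadherin of endothelial junctions, read 14.3, 10.3, 6.53 and 6.66 TPM in control and 29.1, 25.7, 24.2 and 22.6 TPM with plasma. For both genes all plasma libraries were above all controls, as the choice required, with log2 differences of 1.43 ± 0.22 and 1.40 ± 0.20 (adjusted p = 0.000451 and 0.000233). Of 5 endothelial markers VWF was at 5.75 to 9.74 TPM in control and 7.49 to 8.99 TPM with plasma, while PECAM1 and KDR did not exceed 0.0501 TPM and CLDN5 not 0.256 TPM in any library. Their summed level was 12.4 to 24.1 TPM in control and 30.5 to 38.1 TPM with plasma, and CDH5 made up most of the rise.

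Microtubule proteins of neurons, a cyclin of the germ line and a regulator first described as a complement response gene were among the largest decreases. MAP1B, which binds microtubules in axons, read 21.0, 17.8, 13.1 and 15.7 TPM in control and 8.24, 6.30, 5.29 and 4.73 TPM with plasma. MAP2, which binds microtubules in dendrites, read 11.8, 13.4, 13.6 and 13.3 TPM in control and 6.15, 4.71, 4.22 and 5.42 TPM with plasma. Neither gene's groups overlapped, which was a condition of the choice. The log2 differences were -1.33 ± 0.16 and -1.20 ± 0.10 (adjusted p = 8.46e-05 and 6.69e-06). RGCC read 89.4, 89.5, 55.0 and 56.0 TPM in control and 29.7, 26.7, 33.0 and 29.4 TPM with plasma. Its controls fell into a higher and a lower pair, and all plasma libraries lay below both, as the choice required (log2 difference -1.22 ± 0.16, adjusted p = 0.000127). CCNA1, the cyclin A of meiosis, went from 9.17 ± 1.56 to 3.34 ± 0.387 TPM.

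Among the remaining decreases were a signalling lipase, a cytokine and several small proteins. PLA2G4C, a cytosolic phospholipase A2, read 10.5, 9.10, 7.89 and 4.63 TPM in control and 3.51, 2.28, 1.68 and 3.90 TPM with plasma. The lowest control was close to the highest plasma library, and the log2 difference was -1.23 ± 0.24 (adjusted p = 0.0016). CLCF1, a cytokine of the interleukin-6 family, went from 8.12 ± 1.46 to 2.88 ± 0.471 TPM, and MAPK8IP2, a scaffold of the JNK pathway, from 12.4 ± 0.911 to 4.88 ± 0.839 TPM. ZNF114, a zinc finger protein, went from 24.7 ± 3.85 to 8.77 ± 0.469 TPM. AMN1 went from 44.7 ± 4.78 to 18.4 ± 2.56 TPM and ACYP2, an acylphosphatase, from 46.7 ± 5.46 to 19.7 ± 1.05 TPM. FAM156A (13.1 ± 0.589 to 5.08 ± 1.58 TPM) and FAM25A (8.95 ± 2 to 3.39 ± 2.03 TPM) have near-identical copies, so their values are uncertain. Plasma replicate 2 of FAM25A was at 0.649 TPM, against 3.07 to 4.96 TPM in the other plasma libraries. In 4 of these 24 genes the effective length assumed for the gene also shifted by over 0.1 on the log2 scale, and estimated reads gave log2 differences of 1.29 for AK1, -1.29 for MAP1B, -1.74 for PLA2G4C and -1.26 for CLCF1.

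Families of genes were then counted, in 58 lists meant to reach beyond the best known pathways. Genes that are also on a list of known pathways, such as EPHA2 and COL17A1, were kept in these counts. Their counts are read against the 19.5% of all tested genes called higher, the 28.3% called lower and the median log2 difference of -0.05. Most lists lay near these values, and a few leaned strongly one way. In 20 of the 58 lists the more frequent direction of the calls turned, or both became equally frequent, after centring or from reads.

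**Figure D3:**
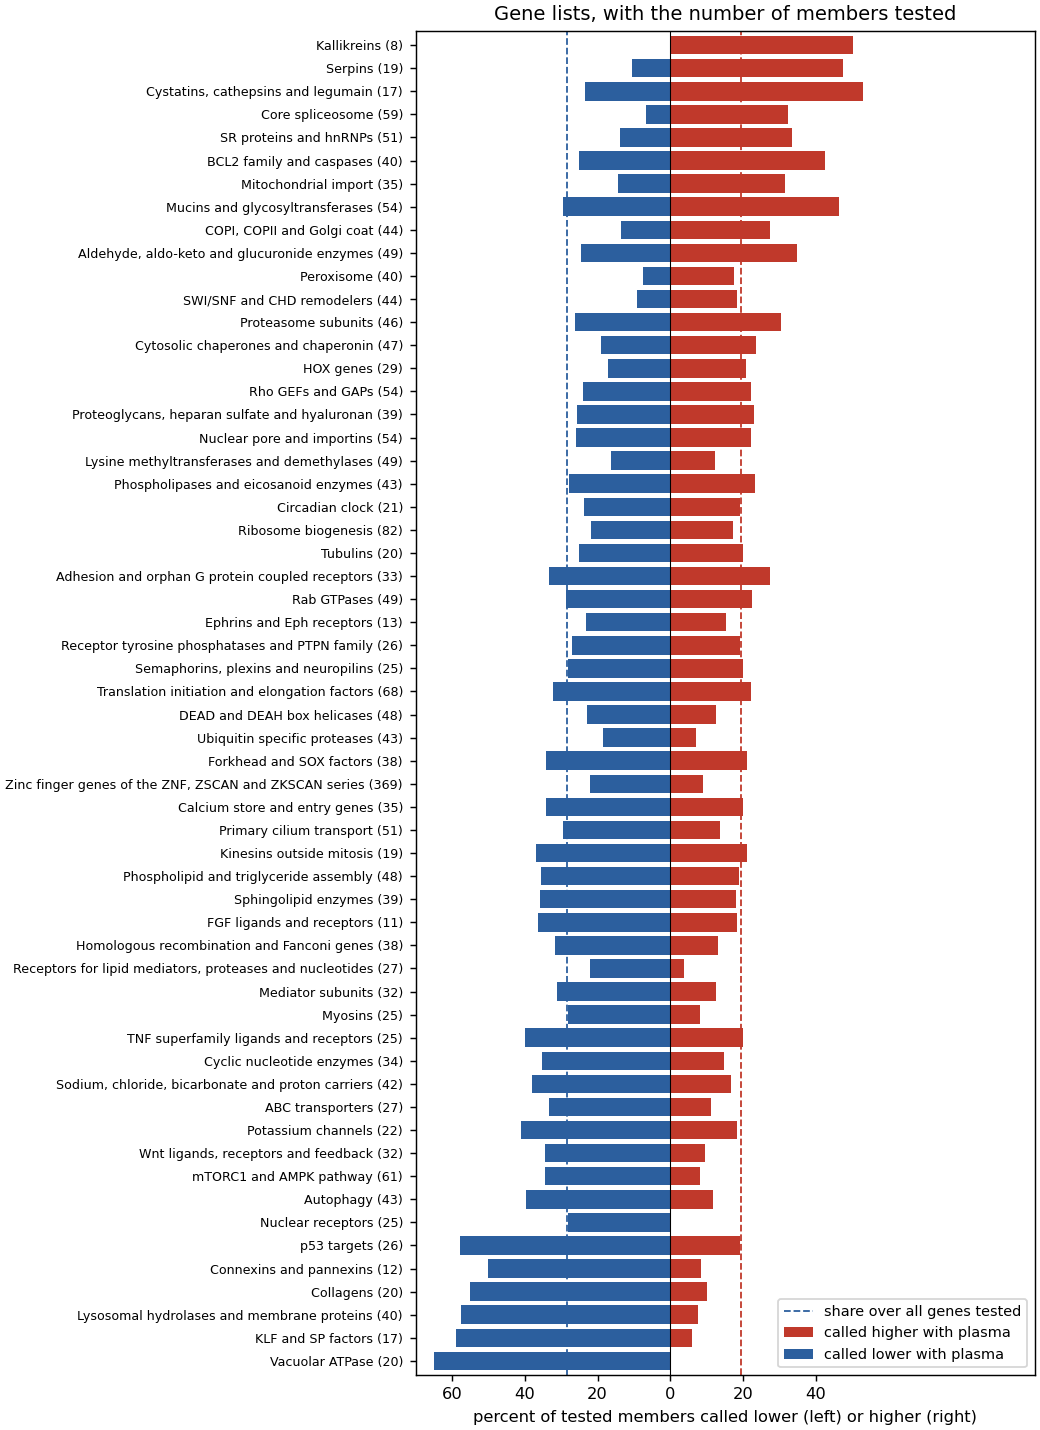
For each of 58 gene lists, with the number of members tested in brackets, bars to the right give the percent called higher with plasma and bars to the left the percent called lower (adjusted p under 0.05). Dashed lines mark the shares over all genes tested, 19.5% and 28.3%; lists are ordered by the percent higher minus the percent lower, from kallikreins and serpins to the vacuolar ATPase.

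Called proteases and protease inhibitors of 3 families were more often higher than lower, although many members were not called. Of 8 kallikreins, serine proteases of the skin surface that cut desmosomes, 4 rose and 0 fell (median 0.45). KLK8 went from 29.8 ± 2.67 to 51.7 ± 4.23 TPM, KLK6 from 14.3 ± 3.80 to 25.0 ± 1.41 and KLK7 from 8.01 ± 2.14 to 11.7 ± 0.518 TPM. KLK5, the most abundant of them, was not called, at 274 ± 52.6 TPM in control and 255 ± 3.21 TPM with plasma (adjusted p = 0.575). Of 19 serpins, which trap serine proteases, 9 rose and 2 fell (median 0.32). SERPINB6 went from 27.6 ± 1.11 to 39.7 ± 1.20 TPM and SERPINH1, a collagen chaperone, from 57.7 ± 4.17 to 74.7 ± 3.46 TPM. SERPINE2, an inhibitor of thrombin, fell from 127 ± 3.86 to 98.2 ± 8.40 TPM. Of 17 cystatins and cathepsins 9 rose and 4 fell (median 0.14). CTSC, which activates proteases of immune cells, went from 122 ± 2.11 to 220 ± 9.41 TPM, CTSH from 187 ± 10.7 to 290 ± 9.44 and CTSB from 451 ± 38.5 to 738 ± 25.7 TPM. CTSL went the other way, from 95.9 ± 8.58 to 63.4 ± 3.16 TPM. CTSD, the most abundant of them, rose only from 961 ± 24.1 to 1080 ± 21.4 TPM.

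The machinery that acidifies and fills lysosomes was lower, in contrast to those cathepsins. The vacuolar ATPase, the proton pump of lysosomes and endosomes, had 13 of 20 tested subunit genes lower and 0 higher (median -0.24). ATP6V1E1 read 190, 182, 188 and 202 TPM in control and 157, 141, 151 and 147 TPM with plasma. The groups were apart, but the change was small, at -0.35 ± 0.04 (adjusted p = 9.29e-05). ATP6AP1 went from 176 ± 7.48 to 137 ± 3.27 TPM and ATP6V0A1 from 40.5 ± 3.73 to 26.8 ± 3.23 TPM. From estimated reads 3 pump genes were higher and 11 lower. Of 40 lysosomal hydrolases and membrane proteins 23 fell and 3 rose (median -0.20). NPC2, which carries cholesterol out of lysosomes, read 1457, 1400, 1452 and 1445 TPM in control and 1108, 1054, 1100 and 1095 TPM with plasma. All plasma libraries were below all controls, with a log2 difference of -0.40 ± 0.03 (adjusted p = 3.59e-06). LIPA, the lipase for cholesterol esters, went from 177 ± 4.11 to 140 ± 4.24 TPM and NEU1, a sialidase, from 175 ± 13.7 to 123 ± 5.38 TPM. Of 43 autophagy genes 17 fell and 5 rose (median -0.14). ATG4A, a protease that processes ATG8 proteins, went from 21.4 ± 1.97 to 10.5 ± 1.29 TPM, and the ATG8 family members GABARAPL1 and MAP1LC3B from 91.8 ± 7.99 to 61.3 ± 1.95 and from 64.5 ± 1.35 to 48.7 ± 1.68 TPM. GABARAP, of the same family and the most abundant of the list, did not fall. It read 438 ± 21.0 TPM in control and 465 ± 6.62 TPM with plasma (adjusted p = 0.0860). After centring and from reads it was called higher (adjusted p = 0.00719 and 0.00113).

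Protein quality control outside the lysosome was mixed. Of 46 proteasome genes 14 rose and 12 fell, and their median of -0.01 became 0.04 after centring and 0.06 from reads. PSMD3, a subunit of the regulatory particle, went from 108 ± 0.941 to 163 ± 3.55 TPM, PSME2, an interferon-induced activator, from 184 ± 9.34 to 292 ± 17.7, and PSMB3, a core subunit, from 227 ± 8.46 to 290 ± 10.2 TPM. Of 47 cytosolic chaperones 11 rose and 9 fell, with CCT7 and CCT3, subunits of the chaperonin that folds actin and tubulin, at 208 ± 10.4 and 376 ± 12.3 TPM in control and 318 ± 8.02 and 462 ± 6.58 TPM with plasma. BAG1, a cofactor of HSP70, fell from 173 ± 3.82 to 131 ± 8.29 TPM.

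Collagens were lower. Of 20 tested collagen genes 11 fell and 2 rose (median -0.34). COL7A1, which anchors epithelium to the tissue beneath, read 26.9, 30.5, 31.9 and 33.9 TPM in control and 15.2, 13.8, 12.2 and 13.2 TPM with plasma. No plasma library reached the lowest control, and the log2 difference was -1.12 ± 0.08 (adjusted p = 3.23e-06), or -0.93 from estimated reads. COL27A1 went from 12.5 ± 0.374 to 7.83 ± 0.918 TPM, COL4A6, a basement membrane chain, from 10.3 ± 0.925 to 6.90 ± 0.788 and COL5A2 from 25.6 ± 2.75 to 19.1 ± 0.738 TPM. COL17A1, the hemidesmosome collagen and most abundant of the list, went from 225 ± 19.2 to 193 ± 13.3 TPM with overlap between the groups (adjusted p = 0.0171). That call was lost without plasma replicate 3 (adjusted p = 0.052). Mucins and glycosyltransferases changed in both directions, 25 of 54 higher and 16 lower (median 0.15). B3GNT5, which starts lacto-series glycolipids, went from 41.2 ± 1.1 to 58.6 ± 1.09 TPM, B4GALT7, which builds the linker of proteoglycans, from 6.35 ± 0.277 to 11.8 ± 1.02, and GCNT1, a branching enzyme of O-glycans, fell from 43.3 ± 2.68 to 30.1 ± 0.832 TPM. CD44, the hyaluronan receptor, fell from 511 ± 21.5 to 358 ± 28.4 TPM.

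Ligands and receptors at the cell surface moved in both directions. Of 25 TNF ligands and receptors 5 rose and 10 fell, or 7 and 7 after centring. The ligands TNFSF15 and TNFSF9 were opposed, TNFSF15 rising from 10.1 ± 0.497 to 15.6 ± 0.227 TPM and TNFSF9 falling from 45.7 ± 2.24 to 25.2 ± 1.74 TPM. The receptor for TWEAK, TNFRSF12A, read 189, 215, 239 and 224 TPM in control and 106, 114, 123 and 117 TPM with plasma. It was lower in every plasma library than in any control, by 0.90 ± 0.07 on the log2 scale (adjusted p = 3.65e-06). TNFRSF10D, a decoy receptor for TRAIL, went from 27.4 ± 2.69 to 14.3 ± 1.66 TPM. Of 32 Wnt ligands, receptors and feedback genes 3 rose and 11 fell. WNT7A read 16.2, 16.4, 15.1 and 15.5 TPM in control and 6.50, 6.21, 6.37 and 6.47 TPM with plasma. Both groups were tight and far apart, with a log2 difference of -1.19 ± 0.06 (adjusted p = 4.65e-07). WNT7B, the more abundant ligand, went from 317 ± 26.3 to 234 ± 6.89 TPM, the secreted factor DKK3 from 187 ± 5.71 to 138 ± 2.92, and the receptor FZD6 from 176 ± 4.26 to 139 ± 3.63 TPM. The receptor FZD10 rose, from 12.1 ± 1.44 to 20.1 ± 0.729 TPM.

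Among 33 adhesion and orphan G protein coupled receptors 9 rose and 11 fell. GPRC5B and GPRC5C, receptors of the retinoic acid-inducible family, went from 13.9 ± 2.15 to 34.1 ± 1.02 TPM and from 16.5 ± 0.921 to 30.9 ± 1.38 TPM. ADGRF1 rose from 91.3 ± 2.10 to 128 ± 3.70 TPM and GPR153 fell from 15.2 ± 1.56 to 7.70 ± 0.334 TPM. Receptors for lipid mediators, proteases and nucleotides, several of whose ligands arise in blood, were seldom called, with 1 of 27 higher and 6 lower in TPM, 3 and 4 after centring, and 4 and 6 from reads. F2R, the thrombin receptor, went from 28.1 ± 2.10 to 16.4 ± 0.967 TPM, P2RY11 from 6.92 ± 1.44 to 3.69 ± 0.754 and HRH1, a histamine receptor, from 13.8 ± 1.46 to 10.3 ± 0.629 TPM. LPAR1, which binds lysophosphatidic acid, rose in TPM, from 16.1 ± 0.501 to 19.1 ± 0.689 TPM. Of 13 ephrins and their receptors 2 rose and 3 fell, or 2 and 2 after centring, with the receptor EPHA2 going from 141 ± 8.69 to 96.3 ± 9.57 TPM and its ligand EFNA1 from 29.4 ± 2.19 to 38.7 ± 2.87 TPM.

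Channels and transporters were called in both directions, at shares that in several lists lay near those of all genes. Of 22 potassium channel genes 4 rose and 9 fell (median -0.17), with KCNK1 at 158 ± 2.26 and 114 ± 6.66 TPM. Of 42 carriers of sodium, chloride, bicarbonate and protons 16 fell and 7 rose, and SLC26A6, an anion exchanger, went from 17.3 ± 1.79 to 8.09 ± 1.30 TPM. Of 27 ABC transporters 9 fell and 3 rose. ABCC3, an exporter of conjugated bile acids and drugs, went from 27.9 ± 1.40 to 13.5 ± 2.30 TPM and ABCB6, a porphyrin transporter, from 22.4 ± 1.27 to 11.5 ± 0.222 TPM. Of 12 connexins and pannexins 6 fell and 1 rose, with the gap junction protein GJA1 at 24.6 ± 1.44 and 16 ± 0.619 TPM. Of 35 calcium store and entry genes 12 fell and 7 rose.

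Motor and traffic genes showed small changes. Of 25 myosins 7 fell and 2 rose, with MYH14, a nonmuscle myosin heavy chain, at 108 ± 17.4 and 67.5 ± 4.55 TPM. KLC2, a light chain of kinesin, went from 156 ± 8.15 to 99.3 ± 5.96 TPM, and its log2 difference was -0.65 in TPM but -0.38 in reads, while its effective length shifted by 0.20 (log2). TUBGCP3, of the complex that nucleates microtubules, went from 12.9 ± 1.74 to 22.9 ± 1.24 TPM. Of 44 COPI and COPII coat genes 12 rose and 6 fell, with none past 1.5-fold (0 genes), and COPE rose from 222 ± 5 to 266 ± 6.29 TPM.

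In the nucleus, KLF and SP factors, which bind GC boxes, fell in 10 of 17 cases and rose in 1 (median -0.23). KLF10 went from 61.7 ± 3.63 to 39.1 ± 3.08 TPM and SP4 from 12.5 ± 0.792 to 7.02 ± 0.425 TPM. KLF5, the most abundant of them, was not called, at 107 ± 5.16 TPM in control and 107 ± 5.25 TPM with plasma (adjusted p = 0.945). The large ZNF, ZSCAN and ZKSCAN series was seldom called, with 33 of 369 higher and 82 lower. Its members included ZSCAN31 (42.1 ± 3.03 to 24.9 ± 1.45 TPM), ZNF165 (14.3 ± 0.760 to 8.59 ± 0.646 TPM) and, rising, ZNF205 (5.85 ± 0.646 to 10.8 ± 0.493 TPM). Of 25 nuclear receptors 0 rose and 7 fell, none past 1.5-fold, while from estimated reads 3 rose and 5 fell. KDM1A, a histone demethylase, fell from 244 ± 19.2 to 160 ± 4.41 TPM, and SMARCD1, a SWI/SNF subunit, rose from 36.6 ± 2.86 to 57.5 ± 3.64 TPM. CRY1, a repressor of the circadian clock, fell from 18.7 ± 1.41 to 11.8 ± 1.08 TPM. FOXA1, a pioneer factor, rose from 11.9 ± 1.03 to 18.7 ± 0.416 TPM. Of 54 nuclear pore and import genes 12 rose and 14 fell in TPM, but 15 rose and 9 fell after centring and 16 rose and 11 fell in reads. The pore membrane protein NDC1 and the scaffold protein AAAS, which NDC1 holds at the pore, rose together, from 29.3 ± 0.710 to 48.5 ± 2.15 TPM and from 10.0 ± 0.685 to 21.2 ± 1.69 TPM.

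RNA processing genes leaned to higher levels by small amounts. Of 59 core spliceosome genes 19 rose and 4 fell, none past 1.5-fold, with a median of only 0.05. SNRPA and SNRNP70, both proteins of the U1 particle, went from 113 ± 3.77 to 168 ± 5.89 and from 138 ± 6.29 to 188 ± 2.80 TPM. PRPF31 and LSM4, of the tri-snRNP and the U6 particle, went from 74.0 ± 1.92 to 91.6 ± 2.57 and from 198 ± 11 to 249 ± 11.1 TPM. Of 51 SR proteins and hnRNPs 17 rose and 7 fell, with HNRNPC at 762 ± 5.57 and 939 ± 14.1 TPM and HNRNPM at 247 ± 14.3 and 318 ± 13.6 TPM. Ribosome biogenesis genes were split, 14 of 82 higher and 18 lower in TPM and 20 higher and 17 lower in reads, PES1 rising from 60.5 ± 1.08 to 83.4 ± 4.74 TPM and NIP7 falling from 49.4 ± 0.994 to 37.5 ± 0.983 TPM. Of 68 translation factors 15 rose and 22 fell in TPM, but 24 rose and 15 fell in reads. The poly(A) binding protein PABPC4 rose from 155 ± 7.21 to 239 ± 7.68 TPM and EIF4G2 from 361 ± 7.62 to 470 ± 13.1 TPM.

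Lipid enzymes outside sterol and fatty acid synthesis included some of the larger metabolic changes. PTGES, which makes prostaglandin E2, read 93.1, 89.8, 95 and 88.1 TPM in control and 198, 210, 201 and 184 TPM with plasma. The groups were far apart, with a log2 difference of 1.1 ± 0.05 (adjusted p = 1.96e-07). PTGES2, another such synthase, went from 26.6 ± 1 to 43.7 ± 0.560 TPM. In their list of 43 phospholipases and eicosanoid enzymes 10 rose and 12 fell, or 12 and 9 after centring. Of 39 sphingolipid enzymes 14 fell and 7 rose, or 11 and 11 after centring, with the ceramide synthase CERS5 at 31.7 ± 3.29 and 18.8 ± 1.94 TPM and the sphingosine kinase SPHK2 at 37.8 ± 2.47 and 23.9 ± 3.01 TPM. Of 48 genes for the assembly of phospholipids and triglycerides 17 fell and 9 rose. LPIN1, a phosphatidate phosphatase, went from 93.9 ± 3.22 to 55.6 ± 4.53 TPM and PCYT2, of phosphatidylethanolamine synthesis, from 175 ± 5.77 to 131 ± 6.93 TPM. Of 40 peroxisome genes 7 rose and 3 fell, and PXMP2, a pore of the peroxisomal membrane, rose from 35.7 ± 1.28 to 65.7 ± 5.27 TPM.

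Called cell death genes were more often higher and called p53 targets more often lower, with both directions in each list. Of 40 genes of the BCL2 family and caspases 17 rose and 10 fell (median 0.12). BIK, a killer protein of that family, went from 29.6 ± 1.87 to 51.8 ± 1.1 TPM, BID from 48.8 ± 1.54 to 72.9 ± 7.83, CASP1, the caspase of inflammasomes, from 14.1 ± 0.755 to 23.5 ± 2.29 and CASP10 from 5.98 ± 0.0963 to 10.3 ± 0.990 TPM. Of 26 targets of p53 15 fell and 5 rose (median -0.21). GADD45A, a stress sensor that binds several kinases and repair factors, read 54.1, 53.8, 57.0 and 58.7 TPM in control and 25.2, 25.0, 22.5 and 24.1 TPM with plasma. Every plasma library was below the lowest control, with a log2 difference of -1.18 ± 0.05 (adjusted p = 2.67e-07). MDM2, which degrades p53, went from 43.6 ± 1.28 to 29.4 ± 2.20 TPM and CDKN1A, a cell cycle inhibitor, from 113 ± 6.01 to 86.9 ± 5.10 TPM. GDF15, a stress cytokine on the same list, rose from 10.2 ± 0.604 to 18.9 ± 1.83 TPM. Of 61 genes of the mTORC1 and AMPK pathway 21 fell and 5 rose, none past 1.5-fold, while 12 fell and 9 rose after centring and 19 fell and 9 rose in reads. EIF4EBP1, the translation repressor controlled by mTORC1, rose from 63.8 ± 2.83 to 90.5 ± 6.77 TPM, and AKT1S1, an inhibitor of the complex, fell from 146 ± 4.65 to 115 ± 7.88 TPM. Of 34 cyclic nucleotide enzymes 12 fell and 5 rose, with the adenylyl cyclase ADCY3 at 61.7 ± 3.64 and 45.6 ± 1.16 TPM.

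Of 3 small groups chosen after their values were seen, the first holds genes known from neurons, and they carry no count as support. AP3B2, a subunit of the neuronal vesicle adaptor AP-3, read 6.15, 5.50, 6.22 and 6.49 TPM in control and 0.860, 1.07, 0.778 and 0.872 TPM with plasma. Its log2 difference of -1.90 ± 0.09 (adjusted p = 3.4e-07) was the largest decrease of all genes tested, and from reads it was -2.73. STMN3, a microtubule destabiliser, went from 48.0 ± 2.14 to 22.5 ± 1.99 TPM and the neurofilament subunit NEFM from 23.3 ± 3.16 to 12.1 ± 1.67 TPM. NEFL, the light neurofilament subunit, rose, from 7.58 ± 1.16 to 12.4 ± 0.661 TPM. The synaptic vesicle protein SV2A went from 10.4 ± 0.517 to 6.24 ± 0.268 TPM, MAPRE3, which tracks microtubule ends, from 20.1 ± 0.461 to 12.0 ± 1.70 and RUNDC3A from 6.97 ± 0.464 to 3.47 ± 0.488 TPM. DNAJC6, which strips clathrin from vesicles in neurons, went from 13.1 ± 3.05 to 6.50 ± 0.460 TPM and SYBU, a kinesin adaptor of axons, from 28.9 ± 1.35 to 18.9 ± 1.18 TPM.

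Neuropeptide genes moved both ways. GAL, which encodes galanin, read 2.09, 1.88, 2.74 and 4.27 TPM in control and 10.5, 10.0, 8.6 and 7.94 TPM with plasma. Its receptor gene GALR2 read 6.09, 6.34, 6.97 and 6.44 TPM in control and 2.14, 2.37, 1.12 and 1.23 TPM with plasma. Peptide and receptor thus changed in opposite directions with no overlap, by 1.49 ± 0.17 and -1.49 ± 0.15 on the log2 scale (adjusted p = 6.15e-05 and 2.29e-05). NMU and NMB, which encode neuromedins, rose from 6.07 ± 0.809 to 13.7 ± 1.62 and from 60.9 ± 4.38 to 123 ± 7.02 TPM. SCG2, a granin of secretory granules, fell from 20.2 ± 1.22 to 8.33 ± 1.30 TPM, and the urocortin genes UCN and UCN2 from 4.34 ± 1.09 to 1.99 ± 0.214 and from 6.49 ± 0.530 to 3.23 ± 0.410 TPM. NPBWR1, a receptor for neuropeptides B and W, fell from 15.6 ± 0.517 to 9.60 ± 0.347 TPM.

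The tested binding proteins for insulin-like growth factors were higher with 1 exception, and IGFBP1 was not among the genes tested. IGFBP3, the main carrier of these factors in blood, read 162, 174, 190 and 192 TPM in control and 406, 406, 390 and 378 TPM with plasma. No library of one group came near the other, and the log2 difference was 1.14 ± 0.05 (adjusted p = 3.21e-07). IGFBP2 went from 177 ± 14.4 to 255 ± 4.56 TPM, while IGFBP4 (147 ± 2.88 to 163 ± 5.36 TPM) and IGFBP7 (48.9 ± 2.65 to 54.7 ± 0.696 TPM) rose by little. IGFBP5 fell, from 9, 11.1, 5.37 and 5.72 TPM in control to 3.36, 2.45, 2.75 and 2.89 TPM with plasma.

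**Figure D4:**
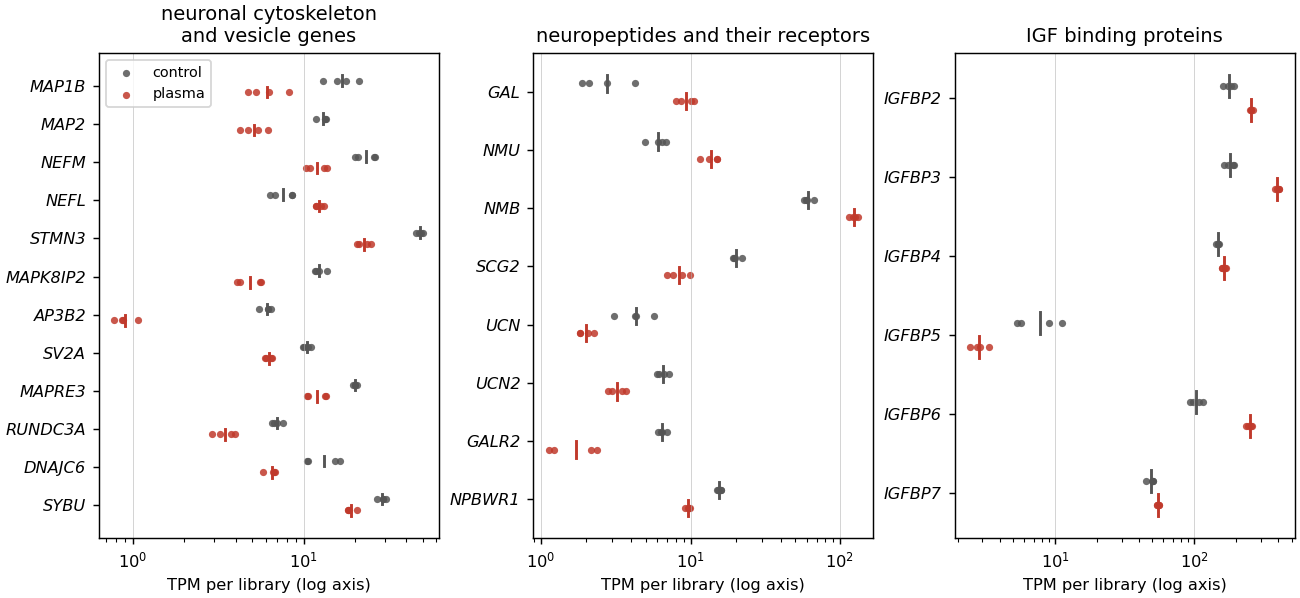
TPM in each library (log axis) for genes of 3 small groups chosen after their values were seen; grey points are control, red points plasma, and vertical ticks group means (n = 4 each). Within the groups NEFL, the peptides GAL, NMU and NMB, and all the binding proteins shown but IGFBP5 lie to the right with plasma, and the other genes to the left.

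Neighbouring genes were also examined, over 12165 tested genes placed on GRCh38.p14. Runs of at least 3 successive tested genes past 1.5-fold in 1 direction numbered 7, of which 6 were clusters of related genes on the known lists. The other, chosen after its values were seen, was KCNQ1, CDKN1C and PHLDA2 (chromosome 11, 2445008 to 2929420), an imprinted domain that holds growth inhibitors. KCNQ1, a potassium channel, went from 2.96 ± 0.326 to 1.34 ± 0.134 TPM. CDKN1C, a cell cycle inhibitor, read 11, 10.2, 9.58 and 10.2 TPM in control and 5.02, 5.94, 5.84 and 5.16 TPM with plasma, and PHLDA2 read 81.2, 91.2, 97.4 and 96.7 TPM in control and 56.2, 55.0, 52.3 and 51.5 TPM with plasma. Neither gene's groups overlapped, and the log2 differences of the 3 genes were -0.76, -0.80 and -0.76 (adjusted p = 0.000119, 1.85e-05 and 4.74e-06). For KCNQ1 the effective length shifted by 0.48 on the log2 scale and reads gave -0.59.

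The most abundant messages included both steady and changed ones. For 1960 genes (15.8%) the 95% interval of the log2 difference lay within 0.2 of 0, and among the most abundant of these were the iron store FTH1 (13529 ± 202 and 13793 ± 585 TPM), the ribosomal proteins RPS2, RPL41, RPL4, RPLP0, RPS20 and RPS23, and the prolyl isomerase PPIA (5058 ± 129 and 5296 ± 111 TPM). Of these 8 genes RPL4 and RPLP0 were called lower, by 0.12 and 0.10 on the log2 scale (adjusted p = 0.0139 and 0.0234), and both calls were lost after centring (adjusted p = 0.308 and 0.431). Of the 10 genes with the highest mean, KRT5, a basal keratin, changed most among those called, from 4784 ± 219 to 7645 ± 390 TPM. GAPDH (5639 ± 167 to 7177 ± 107 TPM) and ACTB (6071 ± 183 to 7063 ± 322 TPM), both often used as references of constant level, rose by 0.35 and 0.22 on the log2 scale. GSTP1, a glutathione transferase, rose by 0.33, from 4581 ± 47.3 to 5772 ± 148 TPM. EEF1A1, the elongation factor, went from 16102 ± 889 to 14281 ± 263 TPM, and its call was lost after centring (adjusted p = 0.102).

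Mitochondrial messages varied widely within both groups. Over the 13 of them tested the median SD of log2(TPM + 1) within plasma was 0.884, against 0.0881 over all genes tested, and 0 were called in either direction. MT-ATP8 read 1928, 4322, 10650 and 9557 TPM in control and 1755, 4765, 7564 and 9416 TPM with plasma, and MT-ND4, MT-ATP6, MT-ND4L and MT-ND1 were likewise lowest in replicate 1 of both groups. Of genes with a mean of at least 5 TPM the most variable within plasma was the histone gene H4C11 (SD of log2(TPM + 1) 2.09), which has near-identical relatives, and these 5 mitochondrial genes came next. It read 19.7, 16.8, 15.1 and 0 TPM in plasma replicates 1 to 4 and 8.89 to 12.9 TPM in control (adjusted p = 0.707).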

How the data were processed

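Per the labels' protocols, cells were extracted with an RNeasy kit, and the Watchmaker kit for mRNA was used on poly(A)-selected RNA. The submitters' processing notes name Salmon and hg38 and give no version. Strand use and the transcript set are not given in the sources used here. For each library the authors deposited TPM, estimated counts of reads and effective lengths for 20375 genes, written with decimal commas (2 plasma files head the TPM column with a library name). TPM recomputed from the deposited counts and lengths matched for 20375 of 20375 genes. TPM depends on all other genes of a library and on the effective length, which shifted by over 0.1 (log2) in 13% of genes tested and in 21.1% of those called past 1.5-fold.

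Genes reaching 1 TPM in 4 or more of the 8 libraries were tested in R 4.3.3 by limma-trend, version 3.58.1, on log2(TPM + 1). The test was two-sided, with 6 residual degrees of freedom and Benjamini-Hochberg adjustment at 0.05. The pseudocount was 1. The script was tested on simulated data. A floor of 3 reads corresponds to at most 0.0827 CPM in a library and covers counting error only. Alternatives were median centring, voom on estimated reads, another pseudocount, other filters, all 12 libraries, a replicate block and leaving out libraries.

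The genes named were the 12 largest changes in each direction with a mean of at least 5 TPM, no overlap and a voom call, outside the known pathways; up to 4 called genes and the most abundant gene of each list described; the 10 most abundant genes; the 8 most abundant within 0.2; and the 6 most variable within plasma. Members and lists were chosen with earlier results of these data known. Genes of the small groups and the neighbour run were chosen after their values were seen. Symbols were matched to RefSeq (GRCh38.p14) for 12165 of 12403 genes and to promoters for 10021. Among the names tested 2 were numbers, as spreadsheets make of gene names, and were not used. A few genes chosen by these rules are not reported here.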

Additional observations from a re-analysis of the deposited data

Results flagged for a closer look

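Library totals and the genes named were examined for a library far from the other 3 of its group, by the gap to the nearest library over the range of the group. GABARAP, KLK5 and KLF5 were not among the genes counted here or in the next section. Of 350 groups 17 exceeded Dixon's 95% critical value, about as many as the 17.5 that chance gives. Plasma replicate 2 had the fewest reads, 36258955, against 41752302 to 41946780 in the other plasma libraries. It was also lowest for HSPB1 (3094 TPM, others from 3520), AAAS (18.6 TPM, others from 21.9) and DNAJC6 (5.82 TPM, others from 6.67). Plasma replicate 1 was highest for MYH14 (74.2 TPM, others up to 66.0), SYBU (20.6 TPM, others up to 18.6) and GPR153 (8.20 TPM, others up to 7.57). Plasma replicate 3 was highest for AK1 (38.7 TPM, others up to 33.5) and plasma replicate 4 lowest for NEU1 (115 TPM, others from 125).

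In control, replicate 1 was lowest for MAP2 (11.8 TPM, others from 13.3) and SPHK2 (34.1 TPM, others from 38.7), and replicate 2 for IGFBP7 (44.9 TPM, others from 49.9) and TNFSF9 (42.4 TPM, others from 46.6). Control replicate 3 was highest for PSME2 (198 TPM, others up to 181) and ABCB6 (24.3 TPM, others up to 21.8) and lowest for SERPINB6 (26.0 TPM, others from 28.0). Control replicate 4 was highest for SERPINH1 (63.9 TPM, others up to 56.3). None of these libraries reached the range of the other group for its gene.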

How the results depend on the processing

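Calls of 1.5-fold or more were 890 as reported, 901 after median centring, 1264 from estimated reads, 1219 with a pseudocount of 0.1 and 644 with a filter at 5 TPM, which tests fewer genes. All calls numbered 5840 to 6819 over centring and reads, and leaving out 1 library gave 5141 to 5599 and both libraries numbered 1 5365, of which 961 past 1.5-fold. Higher calls rose from 2413 to 3114 after centring and 3448 from reads. Genes within 0.2 of 0 numbered 1960, and 4862 with no low-value filter, which adds genes near 0 TPM. Same-numbered libraries of the groups did not all deviate together (correlations of 0.17, -0.06, 0.10 and 0.10), so numbers were not taken as pairs. Some structure was still shared. Plasma replicate 1 correlated at 0.17 and 0.20 with control replicates 1 and 2, and at -0.20 and -0.18 with control replicates 3 and 4. With a replicate block 5946 genes were called, 893 of them past 1.5-fold. Of 58 list medians 13 changed sign with centring and 9 from reads.

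Of 159 called genes chosen for naming, 155 stayed called with the same sign in every alternative that tested them, and 0 reversed. The other 4 were EEF1A1, COL17A1, RPL4 and RPLP0. The choice favoured this outcome. The largest changes had to be called from reads, and list members were taken by smallest adjusted p. Over all 5918 called genes, 5303 were called in the same direction from reads. RPS2, not called, turned from about 0 to 0.053 after centring, 0.064 from reads and 0.056 without both libraries numbered 1. The sign of 7 uncalled genes turned when 1 library was left out. The range over such values was -0.034 to 0.040 for RPS2, -0.62 to 0.37 for MT-ATP8, -0.70 to 0.32 for MT-ND4, -0.60 to 0.34 for MT-ATP6, -0.63 to 0.30 for MT-ND4L, -0.79 to 0.11 for MT-ND1 and -0.8 to 0.66 for H4C11. H4C11 was called without plasma replicate 4, where it is at 0 TPM (0.66, adjusted p = 0.00302). MT-ND1 was called with the replicate block (-0.35, adjusted p = 0.0119). Depth limits statements on genes under 1 TPM, most of which were not tested.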
